A study of Setaria viridis with 13 samples.

Results

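The strongly root-specific genes of green millet (Setaria viridis) are those whose transcripts were abundant in bulk roots and scarce in every other sample of a developmental series. A gene was taken when its level in the root was at least 50 FPKM (a fragment count divided by transcript length and by the total of its sample) and at least 20 times its highest level in the 12 other samples. This rule found 154 of 35471 genes. They are 8.75% of the 1761 genes that reached 50 FPKM in the root. The levels in all 13 samples chose these genes, so those levels are given as a description, and a low level outside the root is not a finding.

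Roots anchor a plant and take up water and mineral ions, and much of this work is done by specialised cell layers, such as the epidermis with its root hairs and the endodermis with its Casparian strip. Genes that serve these layers, among them ion and water channels, wall-modifying enzymes and enzymes of lignin and suberin synthesis, are commonly more active in roots than in leaves of grasses. Setaria viridis is a C4 grass used as a laboratory relative of maize, sorghum and foxtail millet. Not one gene ID of the files was found among 34587 entries of the reference table (RefSeq, assembly Setaria_viridis_v4.0). The genes below are therefore given by ID with no name, role or sequence, and the labelled root could not be checked against known root markers.

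All samples were wild-type plants of accession A10, germinated on wet paper and then grown in hydroponic nutrient medium in long nights. The root sample was bulk roots at 15 days after germination, at stage V5. The other samples were the coleoptile (3 days, stage VE), bulk shoots at 10 days (V3), 15 days (V5) and 20 days (R), the vegetative meristem (10 days), the inflorescence meristem (15 days), panicles before anthesis (22 days) and after anthesis (25 days), and 4 parts of leaf 3 at 10 days. Those parts were a lower section (beneath where leaf 2 has its ligule), a mid section above it, the base above the ligule of leaf 3 itself, and the tip. Each sample has 1 column of values in which 3 biological replicates were merged, so there is no replicate spread and no test between samples was made. The values were read as log2(FPKM + 1), a reading inferred from their range, and read depth is unknown. In bulk tissue, fewer cells of a type and less RNA per cell cannot be told apart.

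Most genes abundant in the root were not specific to it. Of the 1761 genes at 50 FPKM in the root, 811 (46.1%) were higher in another sample and 451 (25.6%) were above all others by less than a factor of 2. A further 231 lay between 2 and 5 times the highest other sample, 64 between 5 and 10 times and 50 between 10 and 20 times. The 154 genes past 20 times outnumbered the 114 genes between 5 and 20 times, but their class has no upper limit. Between 20 and 40 times there were 47 genes, no more than in the doublings below.

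**Figure D1:**
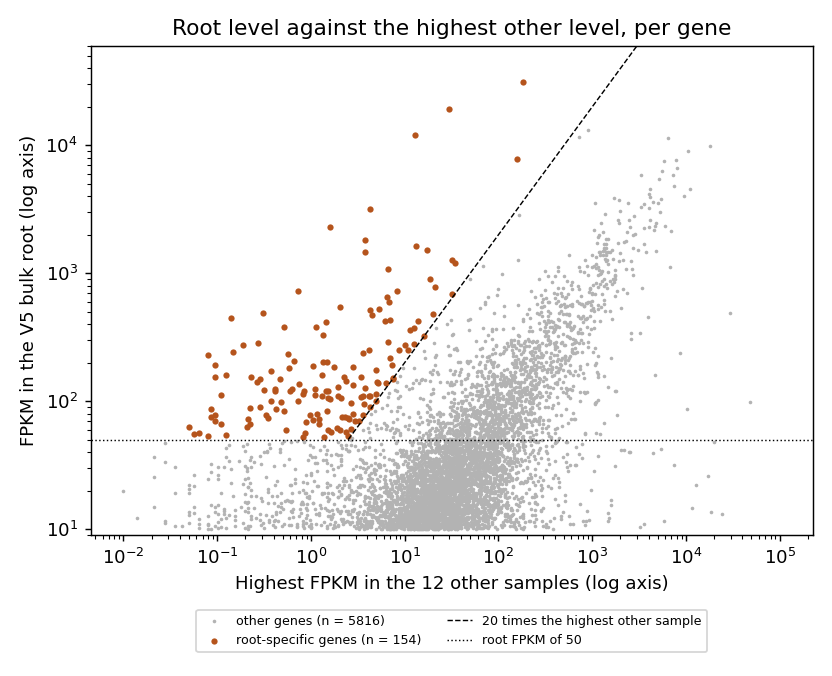
Each point is a gene with at least 10 FPKM in the root, with its root level on the vertical axis and its highest FPKM among the 12 other samples on the horizontal axis, both on log axes (values under 0.01 are drawn at 0.01). The 154 root-specific genes, in brown, lie above both limits, and the 4 most abundant of them stand well above the rest.

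Counts by the same rule were far lower in the other 12 samples, 21 in all. The post-anthesis panicle had 15 genes, the coleoptile 4, the leaf tip and the pre-anthesis panicle 1 each, and the other 8 samples none. The root is the only sample of its tissue label, while related samples can hide each other's genes under this rule. Set only against samples of other labels, the post-anthesis panicle had 24 genes, the coleoptile 4, and no other sample apart from the root more than 1. Bulk shoots carry a different label from the leaf parts and meristems but can include such tissue. Overlap can therefore still lower these counts, and they do not show that the root is exceptional. The root-specific genes together held 13.7% of the summed FPKM of the root. Their share of the sum elsewhere ran from 0.0175% in the leaf base to 0.0856% in the vegetative meristem. In the coleoptile 4 specific genes held 14.0% of the sum, and in the post-anthesis panicle the 15 genes held 0.407%.

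The share in the root came from few genes. The median root level was 135 FPKM, with quartiles of 80.4 and 285, while the highest was 31432 FPKM. The 4 most abundant genes made up 62.5% of the summed level of all 154, and the 10 most abundant made up 73.1%. The other 144 genes together held 3.69% of the root's sum. These 4 were among the 10 most abundant genes of the root, and 11 of the 154 were among its 100 most abundant. With all transcripts of a gene summed in place of its most abundant one, the rule gave 155 genes with a share of 10.2%.

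Si019338m.g was the most abundant gene of the whole root sample, at 31432 FPKM, or 3.82% of its sum. Outside the root it was at 181 FPKM in the vegetative meristem, 176 in the inflorescence meristem and 133 in the coleoptile. In the bulk shoots it was at 29.9 FPKM at V3, 40.6 at V5 and 51.7 at R, and in leaf 3 it was at 43.9 (lower section), 38.1 (mid section), 21.0 (base) and 19.8 (tip). The panicles had 17.4 FPKM before and 20.7 after anthesis. Both meristems and the coleoptile thus stood above all leaf, shoot and panicle samples for this gene, and it was the only one of the 154 at 100 FPKM or more in all 3 of them.

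Si023848m.g, the second most abundant gene of the root, was at 19348 FPKM there and had a different profile elsewhere. It was at 29.5 FPKM in the mid section of leaf 3, 18.7 in the lower section, 14.8 in the tip and 14.3 in the base. The bulk shoots had 15.1 FPKM at V3, 15.4 at V5 and 11.2 at R, and the panicles had 17.3 before and 8.19 after anthesis. It was lower in the vegetative meristem (9.63 FPKM) and the inflorescence meristem (3.00 FPKM), and at 0.157 FPKM in the coleoptile. The coleoptile and the inflorescence meristem, both high for the first gene, were the lowest samples for the second.

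Si023860m.g had 11993 FPKM in the root, 928 times its next level, which was 12.9 FPKM in the pre-anthesis panicle. The post-anthesis panicle followed at 10.6 FPKM and the leaf tip at 6.89. Its median over the 12 other samples was 2.77 FPKM and its lowest level was 0.320 in the leaf base. Both panicles were thus above all leaf, shoot and meristem samples.

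Si036352m.g was the least specific of the leading genes, at 7857 FPKM in the root against 157 in the leaf tip, a ratio of 50.2. It was at 137 FPKM in the post-anthesis panicle, 133 in the vegetative meristem and 131 in the inflorescence meristem, followed by the R bulk shoot (96.0) and the pre-anthesis panicle (94.7). The V3 and V5 bulk shoots had 74.6 and 62.6 FPKM. The lowest levels were in the leaf base (24.5 FPKM), the coleoptile (15.3), the mid section (14.2) and the lower section (10.1). Within leaf 3 the tip was thus above the other parts by a wide margin. Si019338m.g and Si036352m.g were the only genes of the 154 at 50 FPKM or more in any sample other than the root, and these 2 gave the highest value of the 154 in each of the 12 other samples.

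The next 6 genes by root level fell between 1457 and 3168 FPKM and had medians under 5 FPKM over the other samples. Si036602m.g had 3168 FPKM in the root, with a median of 1.08 over the other samples and a highest level of 4.24 in the vegetative meristem. Si027149m.g had 2319 FPKM, with a median of 0.165 elsewhere and 1.60 in the lower section of leaf 3, and was listed at 0 in the leaf base and the inflorescence meristem. Si039458m.g had 1807 FPKM, with a median of 0.553 and a highest other level of 3.82 in the leaf tip.

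The remaining genes of this group had a bulk shoot, a meristem or a leaf section next. Si027144m.g had 1628 FPKM in the root against 13.2 (R bulk shoot) and 10.8 (post-anthesis panicle) in the next samples, with a median of 4.35 elsewhere. Si015779m.g had 1530 FPKM, with 17.5 in the inflorescence meristem and a median of 1.58. Si011427m.g had 1457 FPKM, with 3.76 in the lower section of leaf 3, a median of 0.0644, and 0.189 FPKM or less in every sample but these 2.

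**Figure D2:**
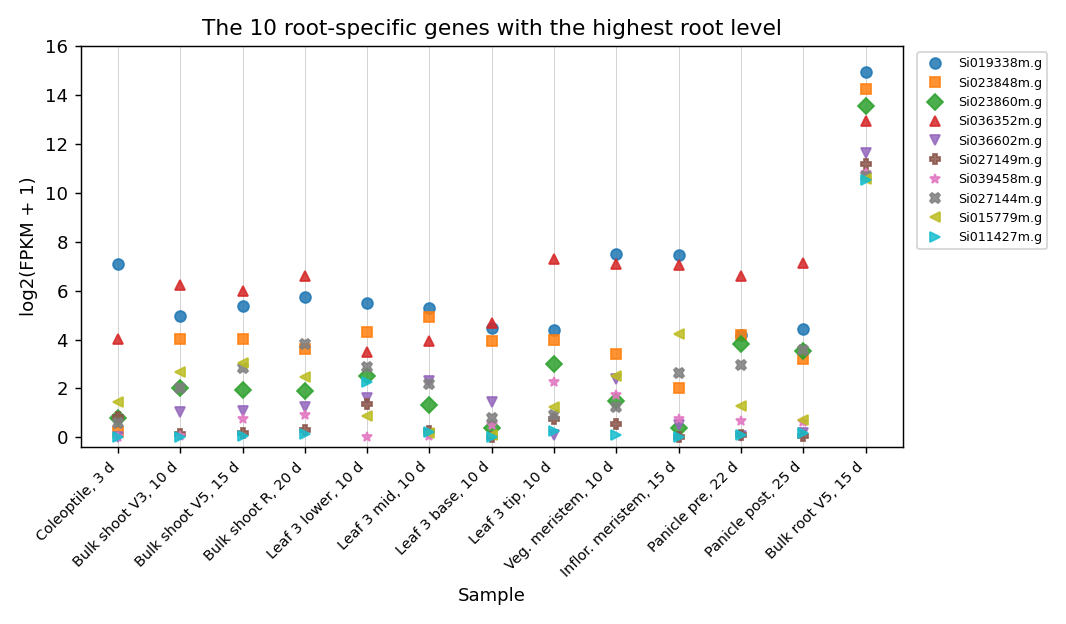
Levels of the 10 genes with the highest root FPKM, as log2(FPKM + 1), in each of the 13 samples; each marker is the single merged value of a gene. All 10 lie above 10 on this scale in the root, and outside it Si019338m.g and Si036352m.g stand above most others.

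The ratio of the root to the highest other sample had a median of 87.5 over the 154 genes, with quartiles of 34.8 and 316. It was at least 100 for 74 genes, at least 500 for 28 and at least 1000 for 14. Against the median of the 12 other samples the root was 536 times higher at the median, over the genes whose median elsewhere was above 0. For 16 genes that median was 0. Of the 154 genes, 77 were listed at 0 in at least 1 sample, 20 genes in at least 6, and none in all 12. Values listed at 0 can be failed estimates, and the first step above 0 in the deposited values is 0.00696 FPKM.

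The largest ratios belonged to genes of moderate root level. Si023648m.g had 448 FPKM in the root and at most 0.141 elsewhere, a ratio of 3181. Si023667m.g had 231 FPKM and at most 0.0792, and Si026669m.g had 192 and at most 0.0943. Si024371m.g had 154 FPKM and at most 0.0943, and Si011309m.g had 243 and at most 0.149. With the rounding of the deposited values, the ratios of Si024371m.g and Si011309m.g cannot be put in order.

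At the limits of the rule the values run on without a gap. Just inside 50 FPKM were Si026630m.g (52.1 FPKM in the root, 0.815 in the next sample) and Si019130m.g (52.4 and 1.39). Just outside were Si010445m.g and Si020698m.g, both at 48.5 FPKM, with ratios of 68.8 and 94.1. Just inside the ratio were Si027209m.g, at 321 FPKM with a ratio of 20.01, and Si024997m.g, at 151 with a ratio of 20.1. Just outside were Si023031m.g, at 100.1 FPKM with a ratio of 19.6, and Si023769m.g, at 181 with a ratio of 19.0.

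Outside the root the 154 genes fell into 3 bands of residual level. For 55 genes the highest other sample was under 1 FPKM. Their root levels ran from 52.1 FPKM to 733 in Si026863m.g, named after its values were seen, which was at 0.729 in the lower section of leaf 3 and had a median of 0.0645 over the 12 other samples. For 64 genes the highest other level was from 1 to 5 FPKM, and for 35 it was higher. At 1 FPKM or more, 22 genes were found in 1 other sample, 74 in 2 to 11 of them, and 3 in all 12.

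Residual levels were higher for genes with higher root levels, but less than in proportion. For the 49 genes from 50 to 100 FPKM in the root, the median of the highest other level was 0.972 FPKM and the median ratio 67.7. For the 52 genes from 100 to 200 FPKM these were 1.48 and 83.0, and for the 13 genes at 1000 FPKM or more they were 13.2 and 173. Spearman's rho between the root level and the highest other level was 0.50 over the 154 genes. The rule itself caps the highest other level by the ratio of 20, which shapes this relation.

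**Figure D3:**
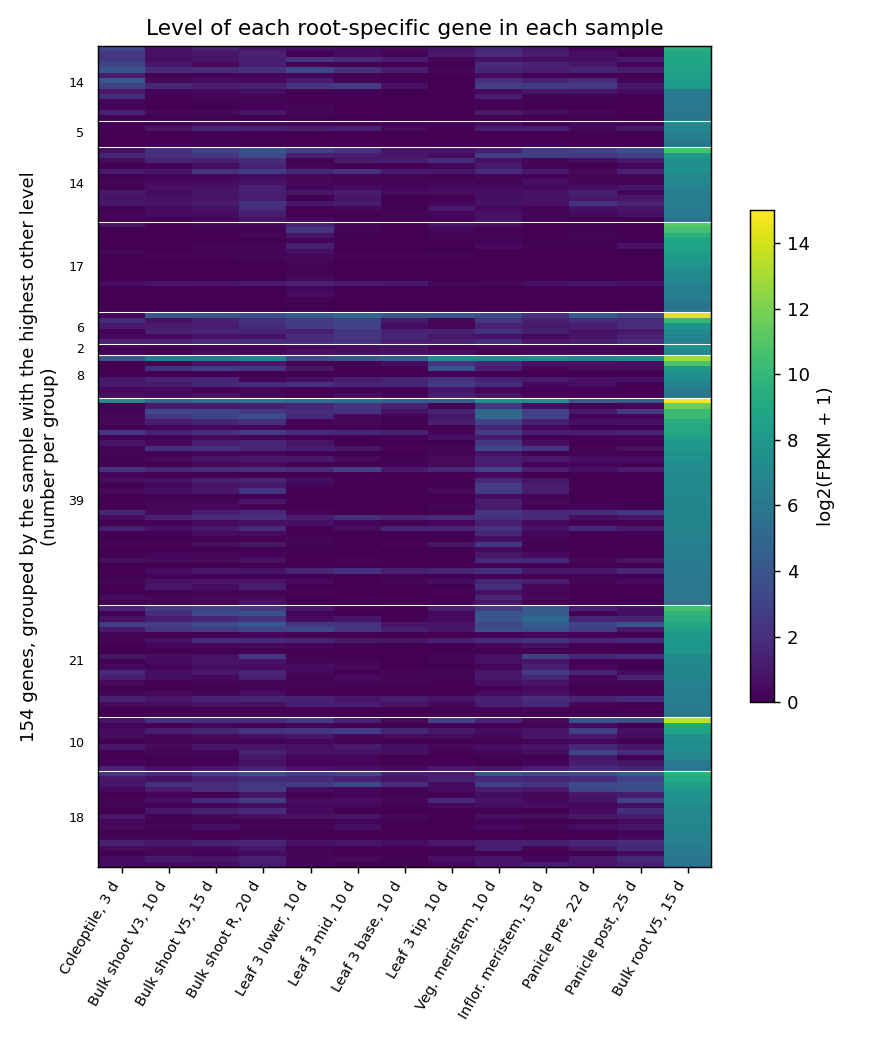
Each row is one of the 154 genes and each column a sample; colour gives log2(FPKM + 1). Rows are grouped by the sample with the highest level after the root, in the order of the columns, with the number of genes per group at the left (14 for the coleoptile, 39 for the vegetative meristem), and sorted by root level within a group.

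The residual signal differed between the samples. The R bulk shoot had the highest median over the 154 genes, 0.784 FPKM, and the vegetative meristem the second highest, 0.688. The V5 bulk shoot was at 0.380, the inflorescence meristem at 0.329 and the V3 bulk shoot at 0.253. The lower section of leaf 3, the panicles and the coleoptile lay between 0.185 and 0.210 FPKM. The leaf tip (0.141), the mid section (0.129) and the leaf base (0.0534) were lowest.

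Counts of genes at 1 FPKM or more had the same 2 samples at the top and the leaf base at the bottom, with a different order between them. In the vegetative meristem 68 of the 154 (44.2%) reached it, in the R bulk shoot 67 (43.5%), in the V5 bulk shoot and the inflorescence meristem 48 each (31.2%), and in the leaf base 26 (16.9%). The V3 bulk shoot, with 35, had fewer such genes than the panicles (39 and 41), the lower section (40) and the mid section (37), all of which had lower medians. Over all genes the same share ran only from 39.0% in the leaf base to 49.7% in the R bulk shoot, and among the other 1607 genes at 50 FPKM in the root from 94.9% to 99.4%. The order moved with how the values of each sample are scaled. The log2 scaling factor from widely expressed genes was 0.55 for the R bulk shoot and -0.54 for the leaf base, the highest and the lowest of all samples. After rescaling by these factors the medians were 0.543 FPKM in the vegetative meristem, 0.535 in the R bulk shoot, 0.366 in the V5 bulk shoot and 0.297 in the V3 bulk shoot. The leaf base stayed lowest, at 0.0774.

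**Figure D4:**
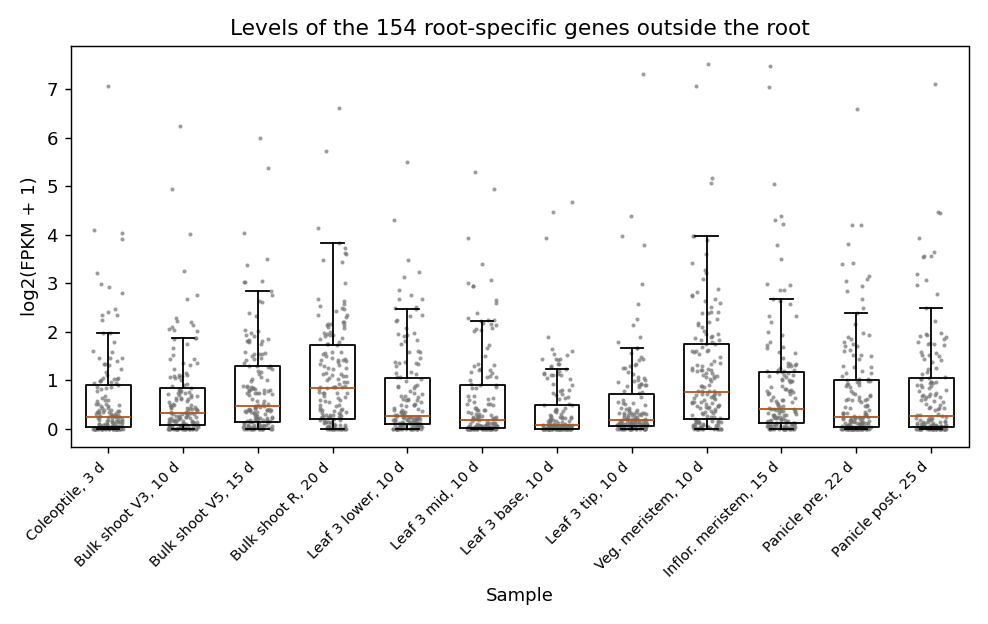
Levels of the 154 root-specific genes in the 12 samples other than the root, as log2(FPKM + 1). Points are genes, boxes span the quartiles with the median in brown, and whiskers reach to the last gene within 1.5 times the box height. The R bulk shoot and the vegetative meristem have the highest medians and the leaf base the lowest.

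The sample that came next after the root was most often a meristem. The vegetative meristem was next for 39 genes (25.3%) and the inflorescence meristem for 21 (13.6%), together 39.0%. Among the other 1607 genes at 50 FPKM in the root the 2 meristems were the highest of the 12 samples for 41.4%, but with the inflorescence meristem ahead (29.2%) of the vegetative meristem (12.1%). The post-anthesis panicle was next for 18 root-specific genes, the lower section of leaf 3 for 17, the coleoptile and the R bulk shoot for 14 each, the pre-anthesis panicle for 10, and the V3 bulk shoot for none. After rescaling, the vegetative meristem was next for 33 genes, the post-anthesis panicle for 20, the coleoptile for 18, the lower section for 17 and the inflorescence meristem for 16.

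The lower section of leaf 3 came next mainly for genes that were almost silent outside the root. Of the 28 genes with a ratio of at least 500, it was the next sample for 12, and of the 47 genes with a ratio under 40 for none. Among the other 1607 genes at 50 FPKM in the root it was the highest of the 12 samples for 3.98%. The ratio used to sort the 28 genes also separates them from these 1607, so the 2 shares are not of like genes. In the 12 genes with a ratio of at least 500 and the lower section next, the root ran from 55.5 to 2319 FPKM and the lower section from 0.0570 to 1.60 FPKM, with a median of 0.145. The mid section, the neighbouring part of the same leaf, had a median of 0.00698 FPKM in the same genes and at most 0.197. The choice of these genes by their next sample places the lower section above all other samples but the root, so this difference is no finding.

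Rank correlations of these low values with the root level are given as a description only. Over the 55 genes that stayed under 1 FPKM outside the root, Spearman's rho with the root level was 0.39 for the lower section, 0.25 for the leaf tip and 0.23 for the pre-anthesis panicle, and from -0.03 to 0.19 for the other 9 samples. These are correlations across genes that share the root column and the chosen limits. The values are near 0, with a median of 0.0943 FPKM in the lower section, so the order of the samples is no finding. The lower section was listed at 0 for 10 of the 55 genes, the fewest of any sample, and the leaf base for 29.

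Differences between samples other than the root are described by size alone, and a gene was called when log2(FPKM + 1) differed by 2 or more and the higher sample had 5 FPKM or more. Few of the 154 genes had enough signal outside the root to be read this way. Between the vegetative meristem and the V3 bulk shoot, 20 genes reached 5 FPKM in either, of which 7 were called higher in the meristem and none lower. Of all genes with 5 FPKM in one or the other, 2.95% were called higher and 6.34% lower. Rescaling moves the meristem by 0.57 against the shoot on the log2 scale, and left 2 genes higher and none lower.

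Si014744m.g had the largest of these differences, at 34.8 FPKM in the vegetative meristem against 3.69 in the V3 bulk shoot, with 1208 in the root. Its level was 6.78 FPKM in the inflorescence meristem and 0.214 or 0.181 in the panicles, so it was lower in the later meristem and lower again in the panicles. Si023637m.g had 14.7 FPKM in the vegetative meristem against 1.17 in the V3 bulk shoot. These 2 were the genes that were still called after rescaling. The others called, named here after their values were seen, were Si019338m.g, Si022703m.g, Si011488m.g, Si026113m.g and Si017991m.g, with differences from 2.04 to 2.56.

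Between the inflorescence meristem and the V5 bulk shoot, 3 of the 16 genes with signal were called higher and 2 lower, beside 6.97% and 7.15% over all genes. Si023637m.g was the largest, at 31.9 FPKM in the meristem against 2.01 in the shoot, with 689 in the root. Both meristems were thus its highest samples after the root. Si015696m.g and Si019338m.g, named after their values were seen, were the other 2 called higher. Si018682m.g had 0.157 FPKM in the meristem against 5.23 in the shoot, and Si023848m.g had 3.00 against 15.4. Rescaling, which moves this meristem by 0.34, left 1 higher and 2 lower.

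In the coleoptile 4 of 11 genes with signal were called higher than in the V3 bulk shoot and 3 lower, beside 2.23% and 4.64% over all genes. Si027209m.g had 16.0 FPKM in the coleoptile against 0.329 in the shoot, with 321 in the root and 3.06 or less in every other sample. The other 3 called higher, named after their values were seen, were Si037329m.g (8.32 FPKM in the coleoptile), Si019338m.g and Si002052m.g (14.0 FPKM). Si023848m.g was lowest against the shoot, at 0.157 FPKM and 15.1, followed by Si022763m.g (0.206 and 8.51), also named after its values were seen, and Si036352m.g (15.3 and 74.6). The V3 bulk shoot serves in both this comparison and that of the vegetative meristem, and the V5 bulk shoot in those of the inflorescence meristem and the R bulk shoot, so such calls are not independent.

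Along leaf 3, 4 of 11 genes with signal were called higher in the lower section than in the tip and 2 lower, beside 10.4% and 2.92% over all genes. Si002052m.g had 7.69 FPKM in the lower section against 3.23 (mid section), 1.43 (base) and 0.257 (tip). Its highest level outside the root was 14.0 FPKM in the coleoptile. Si018184m.g, Si038393m.g and Si011073m.g, named after their values were seen, were the other 3 called higher in the lower section, at 5.77, 8.45 and 5.41 FPKM against 0.257, 0.879 and 0.414 in the tip. In the other direction stood Si036352m.g (10.1 and 157 FPKM) and Si018682m.g, at 0.866 FPKM in the lower section and 12.7 in the tip, with 279 in the root.

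Few of the genes were called between the panicles or between the later bulk shoots. After anthesis 1 of 15 genes with signal was called higher and 1 lower, beside 2.00% and 2.08% over all genes. Si027014m.g had 7.34 FPKM after anthesis against 0.613 before, with 190 in the root and 5.19 in the R bulk shoot. Si010431m.g had 0.580 FPKM after anthesis against 6.21 before, with 427 in the root. Between the R and V5 bulk shoots none of 15 genes with signal was called, beside 0.988% higher and 0.0866% lower over all genes. With 1 merged value per sample no p-value can be given for these counts.

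The root-specific genes had few annotated transcript variants. Only 4 of the 154 (2.60%) had more than 1 transcript in the table, against 430 of the other 1607 genes at 50 FPKM in the root (26.8%) and 9.96% of all genes. The share was also low, at 4.76%, among the 21 genes that met the same level rule in another sample. In each of the 4 genes the other transcript was close to the chosen one in the root. It reached 97.2% of its level in Si021907m.g, 99.3% in Si031655m.g and Si036615m.g, and 100.0% in Si012885m.g, where both were at 188 FPKM. All 4 were also taken when transcripts were summed.

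The deposited table of transcription start site offsets, which gives a signed distance in nt for 4900 genes, was not used to choose the genes. It lists 63 of the 154 (40.9%), against 68.9% of the other 1607 genes at 50 FPKM in the root and 13.8% of all genes. Listing followed the root level. It covered 5 of 49 genes from 50 to 100 FPKM (10.2%), 20 of 52 from 100 to 200 FPKM (38.5%) and 38 of 53 at 200 FPKM or more (71.7%), and 9 of the 10 most abundant. The other genes in the same ranges of root level were listed at 58.2%, 69.7% and 81.9%. The gap was thus widest among the genes of lowest root level.

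Listed offsets of the root-specific genes were mostly negative. Of the 63, 52 (82.5%) were negative, against 47.3% of the 1107 other listed genes at 50 FPKM in the root and 61.1% of all 4900. The median offset was -12.0 nt, with quartiles of -40 and -5.50, against 0.00 nt (quartiles of -9.00 and 40) in the other genes at that root level and -7.00 nt over all listed genes. Among the other genes at 50 FPKM in the root that had a single transcript, the median was -2.00 nt and 52.4% were negative. An offset below -20 nt was given for 21 of the 63 (33.3%), for 9.67% of the other genes at that root level and for 24.8% of all listed genes. The sign convention and the way the offsets were made were not given in the labels or headers.

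Examples of both ends lie among genes of moderate root level. Si035143m.g, at 155 FPKM in the root and at most 0.231 elsewhere, had the lowest offset of the set, -172 nt. Si030905m.g, at 124 FPKM and at most 1.10 elsewhere, had the highest, 118 nt. Si019338m.g, the most abundant gene, was at -151 nt, while Si023848m.g, Si023860m.g and Si036352m.g were at -9, -4 and -1 nt. The most abundant gene was thus far below 0, and the genes just named after it lay close to 0. This did not hold for most of the next genes by root level. Si036602m.g, Si039458m.g, Si015779m.g and Si011427m.g were at -48, -41, -46 and -21 nt. Si027144m.g was at -15 nt, and Si027149m.g was not listed. Of the 21 genes that met the same level rule in another sample, 19 were listed, with a median of -23.0 nt, 89.5% negative and 57.9% below -20 nt.

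**Figure D5:**
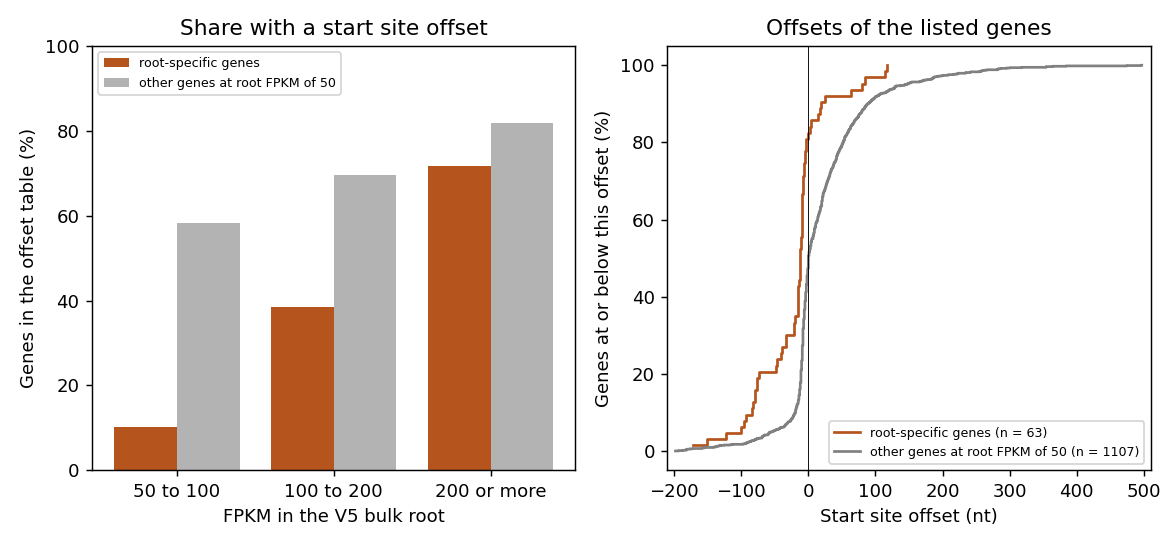
Left, the percentage of genes in the start site offset table by root FPKM, for the root-specific genes and for the other genes at 50 FPKM or more in the root. Right, the cumulative percentage of listed genes by offset in nt; the curve of the 63 root-specific genes reaches 82.5% below 0, and that of the 1107 other genes 47.3%.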

How the data were processed

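RNA was sequenced from 13 samples. Per the labels' protocols, polyadenylated RNA was converted with the SMARTer kit and sequenced in pairs of 100 nt, and 3 replicates grown at different times were sequenced separately. The submitters' processing notes name STAR and DESeq2, with no role. Which build and annotation were used, and how replicates were merged, is not given in the sources used here. As to units, the deposited table holds log2 values per transcript, made by the authors, with 2 decimals and 1 column per sample. They were read as log2(FPKM + 1), a reading inferred from the values, and turned into FPKM. The other deposited table gives 1 start site offset per gene.

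For each gene the transcript with the highest mean FPKM was kept. Rescaling divided each sample by its median ratio over 9792 genes at 1 FPKM or more in all samples. Groups were the sample titles, 1 sample each. Depth is unknown, so no counting intervals are given. The rules were tested on simulated data with planted genes. No other simulated gene could reach the ratio, so false members were not measured. Python 3.11.15, pandas 2.3.3, numpy 2.4.6, scipy 1.17.1 and matplotlib 3.10.9 were used. The genes and lists were chosen with earlier results of these data known.

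Genes named are the 10 highest in the root, the 5 with the largest ratio, the 2 on each side of each limit, the highest in each other sample, the largest difference in each direction of each comparison, the extreme offsets and the genes with more than 1 transcript. Others are said to be named after their values were seen. The gene lists planned by product name could not be used, as no IDs were paired with names.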

Additional observations from a re-analysis of the deposited data

How the results depend on the processing

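Values were taken as moved when they changed by more than 1.5 times. The number of root-specific genes stayed within that bound of 154 in all alternatives run, from 105 (root minimum of 100 FPKM) to 223 (minimum of 25 FPKM). Their share of the root's sum also stayed within it, from 10.2% with transcripts summed to 18.5% over genes with a single transcript. Median-ratio rescaling gave 170 genes, of which 152 were among the 154, and equal sums gave 136. The root had the largest sum of the 13 samples, so scaling to equal sums could only remove genes from the 154. Leaving out each of the 12 other samples in turn gave 154 to 165 genes, and by the rule this count could not fall below 154.

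Of the genes taken with a minimum of 25 FPKM, 105 of 223 were under 1 FPKM in all other samples. With a minimum of 100 FPKM it was 30 of 105, against 55 of 154 in the main setting. The share thus fell as the minimum rose. The ratio limit of the rule caps the highest other level in proportion to the root level. Genes of low root level are thereby held to low levels elsewhere, which by itself favours such a fall, so the fall is no finding. Genes with the coleoptile next were 8 at a minimum of 100 FPKM, against 14. The median ratio was 50.2 with a ratio limit of 10 and 200.5 with a limit of 40, by construction, against 87.5. With the values read as log2(FPKM) and nothing subtracted, it was 55.7 and 0 genes were under 1 FPKM, since that reading sets every 0 to 1.

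For calls between samples other than the root, a difference of at least 1 gave 14 genes for the vegetative meristem against 7, 9 for the inflorescence meristem against 5, 5 for the panicles against 2 and 1 for the R bulk shoot against 0. Rescaling gave 2 and 3 for the 2 meristems. For the lower leaf section against the tip, an FPKM minimum of 1, or none, gave 11 against 6. A limit of 500 nt on the size of offsets could not change the median of -12.0 nt. The offsets of the root-specific genes ran only from -172 to 118 nt. No paired analysis was possible because each sample has 1 merged column with no replicate numbers. Unknown depth limits what can be said of levels near 0.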
